A study of Homo sapiens with 6 samples.

Results

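The signal recognition particle (SRP), its receptor at the endoplasmic reticulum (ER) and the SEC61 channel were examined through 10 genes of the 60664 in the deposited table. They are SRP9, SRP14, SRP19, SRP54, SRP68 and SRP72 for the particle, SRPRA and SRPRB for the receptor, and SEC61A1 and SEC61B for the channel. The members were listed by their role, and the group was taken up because SRPRB was among the clearest falls in these libraries. The difference in SRPRB is therefore given as a description, with no test, and supports nothing else here. The other 9 members were not picked for their own values, but they were listed with earlier results of the same comparison known.

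The RNA-seq libraries came from cells labelled LNCaP, a human prostate cancer line, with LNCaPE in the sample titles, which the design text describes as cells resistant to the antiandrogen enzalutamide. Of the 6 libraries, 3 carried the hairpin labelled shNC and 3 carried shPDGFC, a stable short hairpin against PDGFC, the gene for a secreted platelet-derived growth factor. Both groups were kept in DMEM and 10% fetal bovine serum, and no drug is named in the labels of either. Pooled RNA is mentioned in the labels, which leave unstated what was pooled, whether replicate libraries are independent cultures and whether a stable line is 1 clone, so each p-value covers no more than library-to-library spread, possibly technical.

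Library totals lay between 17360455 and 23930217 reads, and the share of reads from mitochondrially encoded genes was 3.75% to 4.08% in shNC and 4.20% to 4.68% in shPDGFC, without overlap. The part of that shift in the results below was not tested. PDGFC itself stood at 8.19, 8.71 and 8.13 RPKM (reads per kilobase of gene, scaled to the library total) in shNC and at 3.0, 2.43 and 2.52 RPKM in shPDGFC. Of 10 prostate luminal markers 7 reached 1 RPKM in every library, whereas KLK2 and KLK3, which define secretory prostate cells, had 1 read each in the shNC group as a whole and 0 in shPDGFC. The summed level of 4 mesenchymal markers was 337.3 to 347.1 RPKM in shNC and 408.9 to 420.3 RPKM in shPDGFC, mostly from VIM (means of 270.4 and 332.6 RPKM). CDH2 (41.5 and 47.7 RPKM; limma, adjusted p = 0.0043) and FN1 (19.0 and 20.7 RPKM, adjusted p = 0.043) were also higher, while ZEB1 did not pass (adjusted p = 0.40). The sum of 4 epithelial markers was 151.3 to 155.3 RPKM and 164.5 to 180.1 RPKM, with KRT18 higher (60.7 and 77.2 RPKM) and EPCAM (10.4 and 8.61) and CDH1 (1.37 and 0.789) lower. The sum of 6 neuroendocrine markers overlapped, at 50.8 to 53.2 RPKM and 50.2 to 52.0 RPKM, mostly from ENO2, which did not pass (limma, adjusted p = 0.82). Within that sum CHGA was higher (1.61 and 2.13 RPKM, adjusted p = 0.021). SYP (7.41 and 6.62 RPKM, adjusted p = 0.055) and NCAM1 (8.69 and 7.78 RPKM, adjusted p = 0.053) were lower without overlap but did not pass. The libraries of CHGB and INSM1 overlapped. The part of these markers in the results below was not tested. Basal epithelial and endothelial markers (3 of 3 in each list) were below 0.2 RPKM in every library, as were 2 of 4 leukocyte markers.

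SRP meets ribosomes as they begin to make a secreted or membrane protein. SRP54 binds the emerging signal sequence, while SRP9 and SRP14, seated on the Alu domain of the 7SL RNA, slow elongation. SRP19 helps SRP54 onto the RNA, and SRP68 with SRP72 forms a dimer on its S domain. At the ER membrane the GTPase SRPRA, held there by the membrane-anchored GTPase SRPRB, pairs with SRP54 and passes the ribosome to the SEC61 channel. SEC61A1 encodes the pore and SEC61B a small tail-anchored subunit. Cells with a heavy secretory load depend on this route.

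Promoter sequences are shown for SRPRB, which was lower in shPDGFC, and for SRP72 and SEC61A1, whose calls below held under every alternative run. Each runs from 250 bases before to 50 bases after a RefSeq start (build GRCh38.p14, plus strand), and 9 of the 10 members had such an entry. The windows are chr3:133805565-133805864 for SRPRB, chr4:56467367-56467666 for SRP72 and chr3:128052187-128052486 for SEC61A1, where the downstream of the RefSeq starts was taken because its window held a motif. The SRPRB window lies within the annotated gene, downstream of the annotated start at 133784033 from which neighbour distances are counted below. Capitals mark matches to any of the motifs searched on both strands, named in the next paragraph.
SRPRB: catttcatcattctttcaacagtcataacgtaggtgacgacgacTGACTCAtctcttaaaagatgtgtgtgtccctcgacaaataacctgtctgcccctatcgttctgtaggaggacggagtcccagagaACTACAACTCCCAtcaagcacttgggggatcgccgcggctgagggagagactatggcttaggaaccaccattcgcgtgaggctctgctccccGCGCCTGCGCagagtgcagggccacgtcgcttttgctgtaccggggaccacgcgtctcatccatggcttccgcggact
SRP72: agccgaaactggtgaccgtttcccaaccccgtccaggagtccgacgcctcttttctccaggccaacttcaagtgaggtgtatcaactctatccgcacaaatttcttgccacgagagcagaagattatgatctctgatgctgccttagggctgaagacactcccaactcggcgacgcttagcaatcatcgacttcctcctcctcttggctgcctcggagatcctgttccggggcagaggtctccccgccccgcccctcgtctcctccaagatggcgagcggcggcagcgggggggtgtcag
SEC61A1: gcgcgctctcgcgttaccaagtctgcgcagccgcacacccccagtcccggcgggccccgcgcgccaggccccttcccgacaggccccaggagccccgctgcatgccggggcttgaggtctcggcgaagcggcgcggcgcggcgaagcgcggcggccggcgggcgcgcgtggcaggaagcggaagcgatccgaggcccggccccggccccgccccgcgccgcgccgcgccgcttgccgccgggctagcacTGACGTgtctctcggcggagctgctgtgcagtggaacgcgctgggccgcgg

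The 7 motifs were AP-1 (TGANTCA), E-box (CACGTG), ETS (CCGGAAG), the CRE core (TGACGT), NRF1, ZNF143 and the ER stress element ERSE (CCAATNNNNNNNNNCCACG). In the SRPRB window the AP-1 match began at position -206, the ZNF143 match at -120 and the NRF1 match at -28, counted from the start, and they did not overlap. Their letters were TGACTCA, ACTACAACTCCCA and GCGCCTGCGC. Among all 35116 RefSeq promoter windows 7.71% held the AP-1 motif, 1.36% the ZNF143 motif and 5.78% the NRF1 motif. The SRP72 window held none of the 7. The SEC61A1 window shown held the CRE core, which 7.98% of all windows held. That window was taken because it held a motif, so its match cannot be weighed against that share. The window at the other RefSeq start of SEC61A1 (chr3:128051391-128051690) held none of the 7. No member's window held the ERSE letters, which 0.0769% of all windows held, or the E-box, which 7.26% held. The ETS letters, in 10.3% of all windows, occurred in those of SRP19, SRP54 and SRP14. The AP-1 letters also occurred in windows of SEC61B and SRP68, the NRF1 motif in one of SRP68, and the CRE core in those of SRP19 and SRP54. These matches describe letters only.

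The members' levels spanned a wide range that was alike in both groups. In shNC the SRP9 mRNA, at 288.9 ± 1.1 RPKM (SD, n = 3), was 29.3 times that of SRP19, at 9.85 ± 0.47 RPKM, and in shPDGFC 27.5 times. Below SRP9 came SRP14 (115.7 RPKM in shNC), SEC61B (100.3), SEC61A1 (73.6), SRP68 (73.4), SRP54 (68.9), SRP72 (67.4), SRPRB (40.5), SRPRA (37.8) and SRP19. Only SEC61A1 and SRP68, and SRP54 and SRP72, overlapped as neighbours in that order in shNC. In shPDGFC SRPRA stood above SRPRB, at 35.4 against 27.3 RPKM, with no overlap between their libraries, and SRP54 and SRP68 were the neighbours that overlapped. These comparisons between genes use the gene lengths inferred from the steps of the deposited values, which ran from 282 bases for SEC61B to 3855 bases for SRP72.

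**Figure D1:**
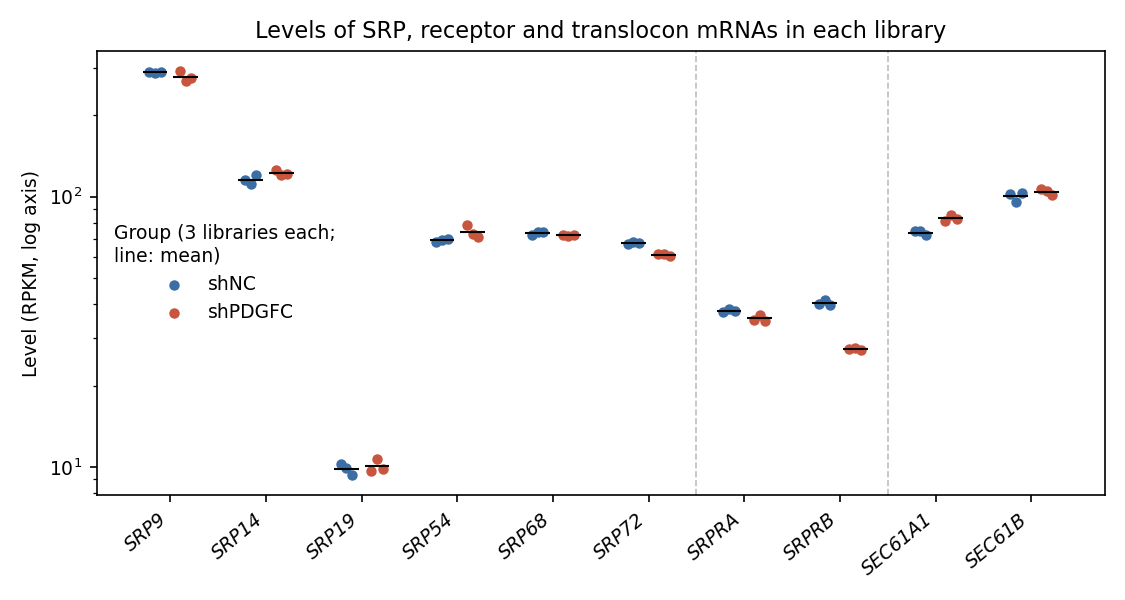
Level of each member in RPKM (log axis) in the 3 shNC and 3 shPDGFC libraries, with points for libraries and lines for group means, and dashed lines between particle, receptor and channel. SRPRB, for which the group was taken up, lies at 39.8 to 41.5 RPKM in shNC and 27.0 to 27.6 RPKM in shPDGFC.

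SRPRB had the greatest difference in the list, which was taken up because of that gene, so its place is only a description. SRPRB, the membrane anchor of the receptor (ENSG00000144867, GRCh38 chromosome 3, 133784033 to 133825772, plus strand), stood at 40.2, 41.5 and 39.8 RPKM in shNC and at 27.3, 27.6 and 27.0 RPKM in shPDGFC. Every shPDGFC library lay below every shNC library, and the shPDGFC mean was 0.674 times the shNC mean. The level was 40.5 ± 0.89 RPKM in shNC and 27.3 ± 0.30 RPKM in shPDGFC (SD, n = 3), on 6781 and 4106 reads. On the log2(RPKM + 1) scale the difference was -0.55 ± 0.025 (SE), and it ran from -0.57 to -0.53 under the 13 alternatives, which include leaving out each library. Of 15337 tested genes 117 had a lower log2 change. In bulk RNA a lower level per cell and fewer cells with the transcript cannot be told apart.

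SRPRA, the receptor GTPase that docks with SRP54 (chromosome 11, 126262919 to 126269144, minus strand), stood at 37.3, 38.4 and 37.7 RPKM in shNC and at 35.1, 36.4 and 34.8 RPKM in shPDGFC. The groups did not overlap, but the gap was narrow, with 37.3 as the lowest shNC and 36.4 as the highest shPDGFC value. The log2 level of SRPRA fell by 0.09 ± 0.026 (SE; adjusted p = 0.039, limma). It no longer passed when shNC library 1 (adjusted p = 0.068), 2 (0.11) or 3 (0.095) was left out, nor without library 1 (0.093) or 3 (0.12) of shPDGFC. The same held with no filter on low values (0.079) and with median-of-ratios scaling (0.073). SRPRA shares 68 exon bases with FAM118B (log2 change -0.02, adjusted p = 0.71) and 90 with FOXRED1 (log2 change 0.10, adjusted p = 0.11), both on the opposite strand.

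Within the particle, SRP72 was the member that changed. SRP72, which with SRP68 binds the S domain of the 7SL RNA (chromosome 4, 56467336 to 56503681, plus strand), stood at 66.9, 68.2 and 67.2 RPKM in shNC and at 61.3, 61.2 and 60.2 RPKM in shPDGFC. All shPDGFC libraries lay below all shNC libraries. Its log2 level fell by 0.14 ± 0.021 (SE; adjusted p = 0.0031, limma), from 67.4 ± 0.66 to 60.9 ± 0.62 RPKM (SD, n = 3), and passed under all 13 alternatives (adjusted p between 4.6e-05 and 0.02).

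Its dimer partner SRP68 stood at 72.1, 74.1 and 74.0 RPKM in shNC and at 72.1, 71.8 and 72.1 RPKM in shPDGFC, and the groups overlapped (log2 change -0.03, adjusted p = 0.38). SRP54, the GTPase that reads the signal sequence, stood at 67.8, 69.1 and 69.9 RPKM in shNC and at 78.4, 72.7 and 70.8 RPKM in shPDGFC. Its groups did not overlap, but it did not pass the test (limma, log2 change 0.10 ± 0.039 SE, adjusted p = 0.094), and shPDGFC replicate 1 was its highest library. With limma-voom on the reads recovered from the table SRP54 did pass (adjusted p = 0.018).

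The Alu-domain pair did not pass. SRP9 stood at 289.9, 287.7 and 289.0 RPKM in shNC and at 291.6, 266.6 and 273.8 RPKM in shPDGFC, where replicate 1 lay above every shNC library and replicates 2 and 3 below them (limma, log2 change -0.06, adjusted p = 0.24). Without shPDGFC replicate 1 SRP9 passed as lower (log2 change -0.096, adjusted p = 0.044). SRP14 stood at 115.0, 111.5 and 120.4 RPKM in shNC and at 125.4, 120.1 and 121.4 RPKM in shPDGFC, with overlap (log2 change 0.08, adjusted p = 0.11).

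SRP19, the least abundant member, stood at 10.3, 9.94 and 9.34 RPKM in shNC and at 9.69, 10.7 and 9.83 RPKM in shPDGFC, with interleaved libraries (limma, log2 change 0.03, adjusted p = 0.69). Its sign turned without shNC replicate 3 (-0.005) or shPDGFC replicate 2 (-0.011). SRP19 shares 368 exon bases with REEP5 on the opposite strand, an ER-shaping protein gene that rose from 35.6 to 43.5 RPKM (adjusted p = 0.00069), and with no strand setting known the reads of that stretch could belong to either gene. The overlapping ZRSR2P1 (1470 shared bases, same strand) is listed at 0 in every library, and ENSG00000258864 (439 shared bases, same strand) had 1 read in all.

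At the channel, the pore gene rose. SEC61A1 (chromosome 3, 128051641 to 128071683, plus strand) stood at 74.4, 74.4 and 72.2 RPKM in shNC and at 81.0, 85.8 and 82.9 RPKM in shPDGFC. Every shPDGFC library lay above every shNC library. Its log2 level rose by 0.17 ± 0.028 (SE; adjusted p = 0.0045, limma), from 73.6 ± 1.2 to 83.2 ± 2.4 RPKM (SD, n = 3), and passed under all 13 alternatives (adjusted p between 6.6e-06 and 0.02). RUVBL1, a helicase gene with 344 shared exon bases on the opposite strand, went the other way, from 95.4 to 82.7 RPKM (log2 change -0.20, adjusted p = 0.002). SEC61B stood at 102.2, 95.4 and 103.3 RPKM in shNC and at 106.6, 104.8 and 101.4 RPKM in shPDGFC, with overlap (log2 change 0.06, adjusted p = 0.29).

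Among the 9 members other than SRPRB, all of which passed the filter on low values, 1 rose, 2 fell and 6 did not pass, with a median log2 change of 0.03. Over all tested genes 29.8% passed in either direction, 14.2% as higher and 15.6% as lower, and the median log2 change was -0.013. The groups did not overlap for 4 of the 9 members, while 46.8% of tested genes had no overlap. Both shares of the members, 33.3% passing among them, are near the background. Within groups the members varied by 1.0% to 5.1% (coefficient of variation), and counting error alone gave 1.1% to 4.2%. The variation was below the counting error for SRPRA, SRPRB, SRP68, SRP72 (1.0% against 1.4%) and SEC61B, and above it for the others.

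**Figure D2:**
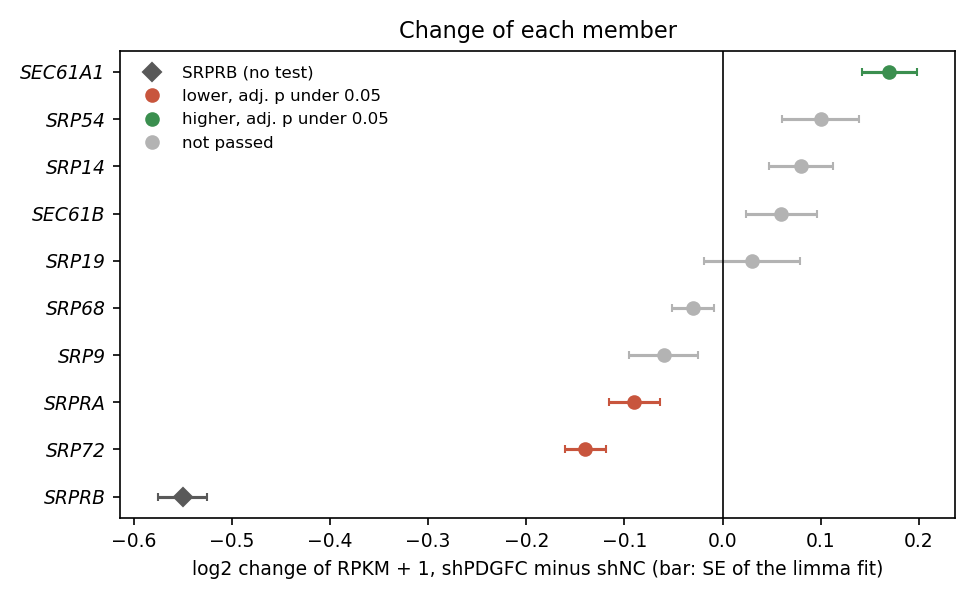
Change of each member on the log2(RPKM + 1) scale, shPDGFC minus shNC, with the SE of the limma fit as bars. SRPRB, for which the group was taken up, lies at -0.55, and the other members run from -0.14 (SRP72) to 0.17 (SEC61A1).

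Ratios of subunits that work as pairs were taken within each library, a comparison chosen after the values were seen. SRPRB stood at 1.08, 1.08 and 1.06 times SRPRA in shNC and at 0.778, 0.757 and 0.776 times SRPRA in shPDGFC, given without a test. SRP72 stood at 0.928, 0.92 and 0.909 times SRP68 in shNC and at 0.85, 0.852 and 0.835 times in shPDGFC. The SRP72 to SRP68 groups did not overlap (exact permutation test over 20 arrangements of the labels, two-sided p = 0.10, adjusted p = 0.15 over the 3 ratios tested). A p of 0.10 is the smallest that 3 against 3 libraries allow, so no ratio could pass.

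The ratio of SRP9 to SRP14 was 2.50 ± 0.091 in shNC and 2.27 ± 0.054 in shPDGFC (SD, n = 3; exact permutation p = 0.10, adjusted p = 0.15), again without overlap. The ratio of SEC61A1 to SEC61B was 0.735 ± 0.041 in shNC and 0.799 ± 0.034 in shPDGFC, and its libraries overlapped (exact permutation p = 0.20, adjusted p = 0.20).

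**Figure D3:**
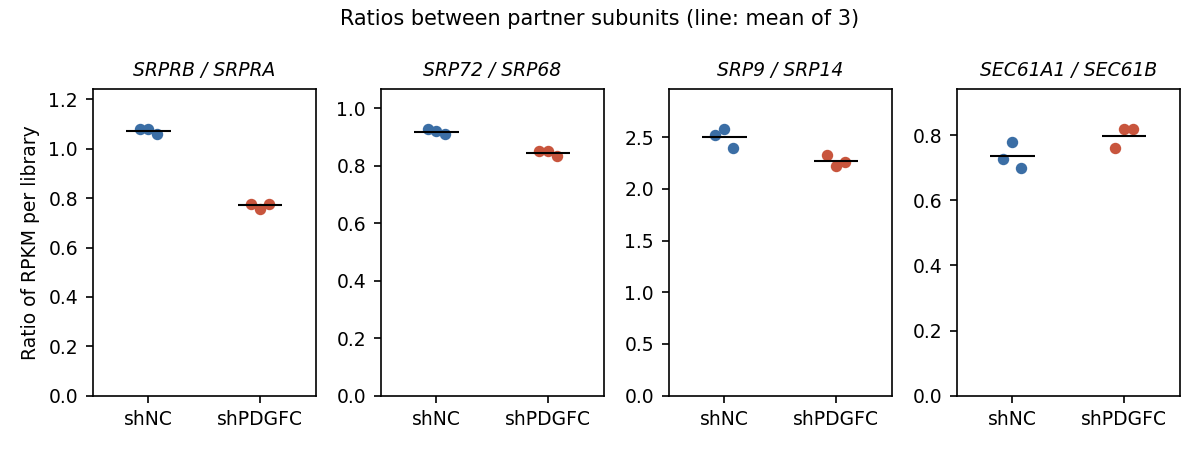
Ratio of RPKM between partner subunits in each library, with points for libraries, lines for means and axes from 0. SRPRB to SRPRA goes from 1.06 to 1.08 in shNC to 0.757 to 0.778 in shPDGFC, and the SRP72 to SRP68 and SRP9 to SRP14 groups also do not overlap.

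No 7SL gene passed in the limma fit on RPKM. RN7SL1 stood at 93.1, 115.6 and 130.8 RPKM in shNC and at 111.9, 130.7 and 92.8 RPKM in shPDGFC, with libraries of both groups interleaved (limma, log2 change -0.02, adjusted p = 0.94). RN7SL3 stood at 8.63 ± 2.7 and 12.7 ± 2.4 RPKM (SD, n = 3; log2 change 0.53, adjusted p = 0.11), and RN7SL2 is listed at 0 in every library. RN7SL3 was the 1 of these genes higher at an unadjusted p under 0.05, and it passed as higher with limma-voom on recovered reads. Because these genes are near-identical copies, how reads were divided among them is uncertain.

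Genes that work beside SRP were taken from lists drawn up by function, 77 genes of which 74 were tested. Of these 27 rose, 6 fell and 41 did not pass, a share of 44.6% passing beside 29.8% of all genes. Over all tested genes 14.2% passed as higher and 15.6% as lower. The median log2 change was 0.06 in the lists beside -0.013 over all tested genes. The lists were not matched to all genes by level, and the part of level in these shares was not tested. No list was tested as a set. In the lists below where limma called 0 genes lower, 0 were lower at an unadjusted p under 0.05 as well, and limma-voom also called 0 lower.

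Among the other channel and accessory genes 5 of 10 rose and 0 fell (median log2 change 0.12). SEC61A2, a second pore gene, rose from 14.7 ± 0.54 to 18.1 ± 0.45 RPKM (limma, adjusted p = 0.0017; SD, n = 3), with every shPDGFC library above every shNC library. SSR3, of the translocon-associated protein complex, rose from 30.9 ± 0.15 to 34.3 ± 0.40 RPKM (adjusted p = 0.0036). The most abundant of the list, SEC61G, which encodes the gamma subunit of the channel, was at 208.0 and 200.6 RPKM (adjusted p = 0.47).

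Of the 12 oligosaccharyltransferase genes, whose enzyme attaches N-glycans to chains leaving the channel, 4 rose and 0 fell (median 0.06). DDOST, a structural subunit, rose from 101.9 ± 2.0 to 119.6 ± 1.7 RPKM (limma, adjusted p = 0.0011) and STT3B, a catalytic subunit, from 55.0 ± 0.63 to 61.8 ± 1.1 RPKM (adjusted p = 0.0029; SD, n = 3). OST4, the most abundant, was at 172.8 and 179.2 RPKM (adjusted p = 0.66). Of 6 signal peptidase and signal peptide peptidase genes 1 fell and 0 rose (median 0.06), but 2 were higher at an unadjusted p under 0.05 and limma-voom called 2 higher and 2 lower. SEC11A, a catalytic signal peptidase subunit, fell from 99.3 ± 3.0 to 88.5 ± 1.7 RPKM (limma, adjusted p = 0.0064).

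The multipass translocon, which joins SEC61 for proteins with many membrane spans, had 3 higher and 1 lower of 7 tested genes (median 0.09). CCDC47 fell from 71.9 ± 0.57 to 62.1 ± 1.8 RPKM (limma, adjusted p = 0.0022; SD, n = 3), whereas NCLN rose from 16.8 ± 0.21 to 19.4 ± 1.1 RPKM (adjusted p = 0.01). TMCO1, the most abundant, rose from 77.8 to 82.6 RPKM (adjusted p = 0.032). TMCO1 no longer passed when library 1 (adjusted p = 0.097) or 3 (0.10) of shNC, or library 2 (0.069) or 3 (0.099) of shPDGFC, was left out. NOMO1, NOMO2 and NOMO3 are close paralogs whose reads may be shared, and WDR83OS is listed at 0 in every library.

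Among genes of other insertion machinery, those of the GET and SND pathways passed in both directions. Of 10 genes of the ER membrane complex, an insertase, 4 rose and 0 fell (median 0.09), and EMC4 rose from 62.7 ± 1.4 to 75.3 ± 0.67 RPKM (limma, adjusted p = 0.00078; SD, n = 3). EMC1 (21.9 to 25.4 RPKM, adjusted p = 0.0024) and EMC3 (23.6 to 27.8 RPKM, adjusted p = 0.0012) rose with it. In the GET and SND pathways, which serve tail-anchored and other SRP-independent proteins, 4 rose and 2 fell of 8 tested (median 0.05). GET3, the ATPase that carries tail anchors, rose from between 37.6 and 38.5 RPKM to between 45.5 and 49.7 RPKM (adjusted p = 0.0013), while GET1, part of its receptor, fell from 27.3 ± 0.55 to 21.7 ± 1.3 RPKM (adjusted p = 0.0025). BAG6, a chaperone ahead of GET3, rose from 56.8 to 64.0 RPKM (adjusted p = 0.0086).

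Of the proteins that bind chains at the ribosome exit, 1 of 3 tested rose. That was BTF3L4 (19.5 to 21.7 RPKM; limma, adjusted p = 0.0087), while BTF3, the most abundant, was at 377.8 and 391.7 RPKM (adjusted p = 0.23). Among 16 ER chaperones and folding enzymes 6 rose and 2 fell (median 0.07). HYOU1, a large chaperone of the ER lumen, rose from 33.2 ± 0.46 to 38.9 ± 0.71 RPKM (adjusted p = 0.0013), and SIL1, an exchange factor for the chaperone BiP, fell from 12.1 ± 0.52 to 10.7 ± 0.23 RPKM (SD, n = 3; adjusted p = 0.016). CALR, the most abundant, was at 340.6 and 352.9 RPKM (adjusted p = 0.13). The SIL1 call was lost without shPDGFC replicate 3 (adjusted p = 0.052).

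**Figure D4:**
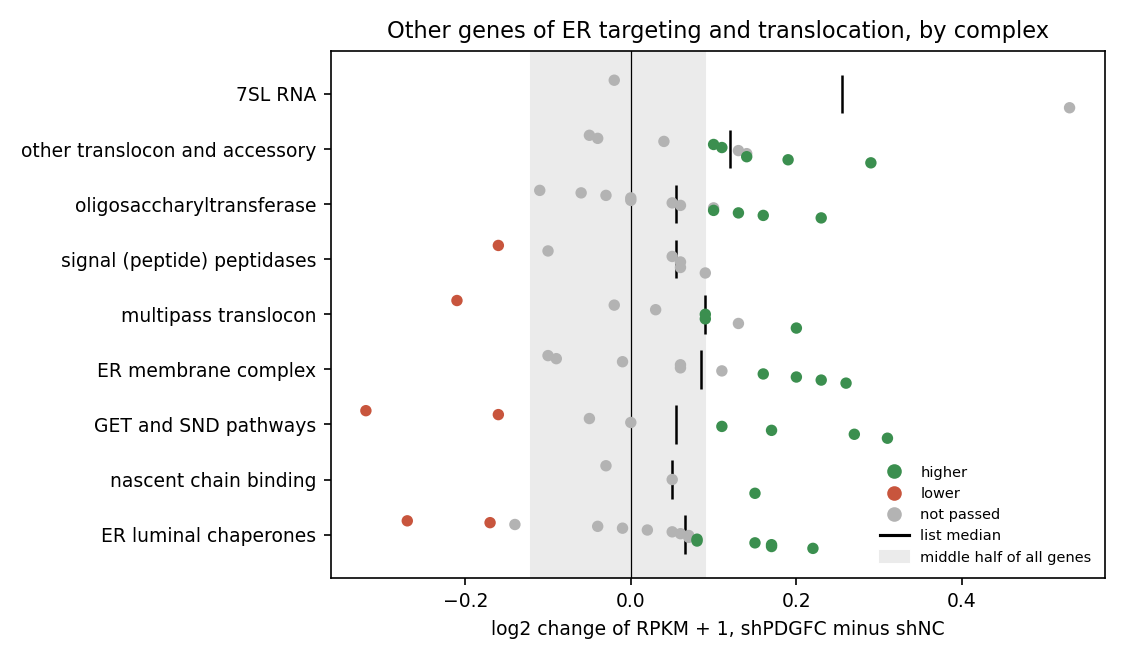
Log2 change of RPKM + 1, shPDGFC minus shNC, for the 74 tested genes of the lists beside SRP, with a point for each gene, coloured by call, a line at each list's median and grey for the interquartile range of all tested genes. More points passed as higher (27) than as lower (6), and most lie within 0.3 of 0. Over all tested genes 14.2% passed as higher and 15.6% as lower.

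The genes around SRPRB were described because the gene shares sequence with its neighbours. Within 500 kb of it 21 other genes are annotated, of which 7 were tested, and 2 of the 7 fell and 0 rose in limma, beside 15.6% lower and 14.2% higher over all tested genes. At an unadjusted p under 0.05 there were 5 lower and 0 higher, beside 22.6% lower and 19.8% higher over all tested genes, and limma-voom called 2 lower and 0 higher. With so few genes nothing is read from these counts about the region. RAB6B, a Golgi GTPase gene that shares 381 exon bases with SRPRB on the opposite strand, stood at 14.1, 14.6 and 14.5 RPKM in shNC and at 12.2, 12.7 and 12.6 RPKM in shPDGFC (limma, log2 change -0.19, adjusted p = 0.0038). SLCO2A1, a prostaglandin transporter gene, stood at 3.80, 3.34 and 3.16 RPKM in shNC and at 2.20, 2.43 and 2.10 RPKM in shPDGFC (log2 change -0.45, adjusted p = 0.0048). Both sets of groups were free of overlap.

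The other tested neighbours did not pass. They were CDV3 (adjusted p = 0.66), TOPBP1 (0.089), RYK (0.11), INHCAP (0.52) and RNU6-678P (0.065, on 9 and 3 reads). RNU6-678P passed as lower in limma without shPDGFC replicate 3 (adjusted p = 0.025) and with the replicate numbers as a block (0.045). TOPBP1 passed as lower with upper-quartile scaling (0.045). TF, the transferrin gene, shares 112 exon bases with SRPRB on the same strand and was at 0.0303 RPKM in shNC and 0.0498 RPKM in shPDGFC, below the level tested. ENSG00000285908, an antisense gene with 388 shared exon bases, was at 0.183 and 0.152 RPKM. Reads in the stretches that SRPRB shares with RAB6B and the antisense gene could belong to either strand's gene.

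**Figure D5:**
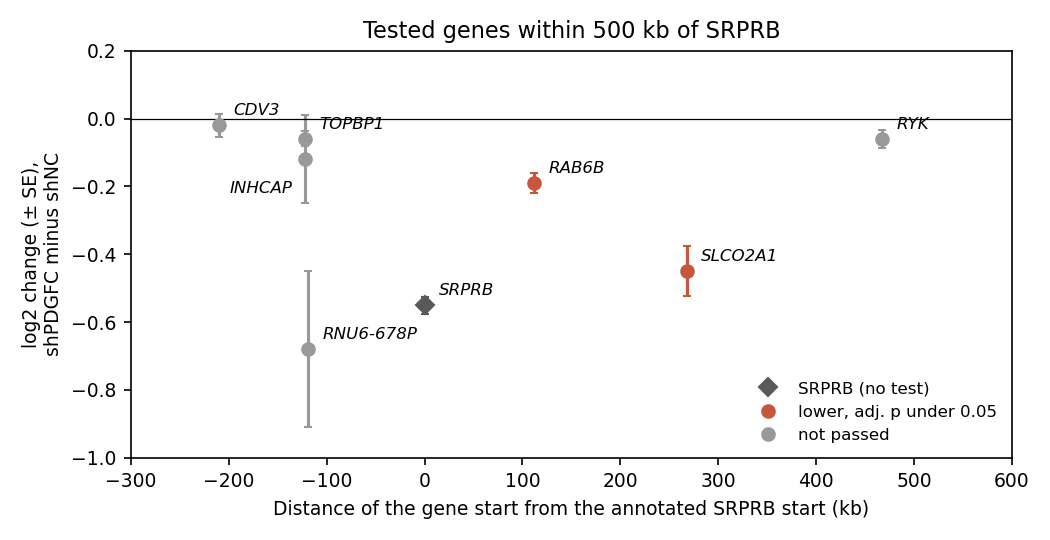
Log2 change of the tested genes within 500 kb of SRPRB against the distance of each gene's start from the annotated SRPRB start in kb, with SE bars. SRPRB (-0.55), SLCO2A1 (-0.45) and RAB6B (-0.19) lie below the rest, except RNU6-678P, which rests on 12 reads.

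The profiles most like that of SRPRB over the 6 libraries were picked by the root mean square difference of log2(RPKM + 1) values, each gene centred on its own mean, among 9756 genes with a mean of at least 5 RPKM. They were CNTNAP2, a neurexin-family adhesion protein (difference 0.021), CHCHD4, an import factor of the mitochondrial intermembrane space (0.027), DSC2, a desmosomal cadherin (0.031), the chemokine receptor gene CXCR4 (0.033) and PXYLP1, a xylose phosphatase gene (0.034). None of these is on the lists of ER targeting genes. CHCHD4 stood at 28.5, 30.2 and 29.7 RPKM in shNC and at 19.5, 20.1 and 18.9 RPKM in shPDGFC, and CXCR4 at 53.9, 55.5 and 50.9 RPKM against 35.1, 36.1 and 36.7 RPKM. Since likeness was measured to a gene picked for its difference between groups, the difference between groups in these 5 genes is a description.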

How the data were processed

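The series holds single-end RNA-seq of 6 libraries, 3 labelled shNC and 3 shPDGFC, made from total RNA with an Ion Total RNA-Seq kit, per the labels' protocols. The authors deposited what were taken as RPKM values, made by dividing reads by gene length and library total. The header names no unit and the labels refer to a table of raw counts, so the unit was inferred from the values: 37040 of 37040 genes above 0 stood in whole-number ratios between libraries after a factor per library (relative tolerance 1e-12). Reads, gene lengths and library totals were recovered from these steps, and the recovered reads summed to 99.45% to 99.46% of the implied totals. No source used here gives the aligner, counter, annotation or strand setting. GRCm38 and mm10, which are mouse builds, appear in the submitters' processing notes, yet all 60664 identifiers are human. Symbols and coordinates came from GENCODE 29 on GRCh38 and a table of gene names, by Ensembl identifier, and promoters from RefSeq.

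The fit used limma 3.58.1 (R 4.3.3) on log2(RPKM + 1), modelling the trend of variance with level, for the 15337 genes that reached 1 RPKM in 3 or more libraries. The contrast was shPDGFC minus shNC, p-values were adjusted by Benjamini-Hochberg over all of these genes, and the threshold was 0.05. That scale understates changes of low genes. The fit was tested on simulated reads. A gene is said to have risen or fallen only if it passed.

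The members and lists were chosen with earlier results of these data known. Named genes were the members, PDGFC, the most abundant gene of each list and its clearest call in each direction, tested genes within 500 kb of SRPRB, genes overlapping a member's exons, and the 5 profiles most like SRPRB. RN7SL2, RN7SL3, SSR3, STT3B, WDR83OS, the NOMO genes, EMC1 and EMC3 were named after their values were seen. A transcript sequence is not reported here.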

Additional observations from a re-analysis of the deposited data

How the results depend on the processing

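The comparison was recomputed under 13 alternatives: a pseudocount of 0.1, no filter, a filter on all 6 libraries, upper-quartile and median-of-ratios scaling, limma-voom on recovered reads, a replicate block, and leaving out each library. Of the members other than SRPRB, 2 passed as higher with limma-voom in place of 1, the added gene being SRP54. With no filter, with median-of-ratios scaling and with the replicate block 1 passed as lower in place of 2, and between 1 and 2 did when a library was left out, the call lost being that of SRPRA, while SRP9 passed without shPDGFC replicate 1. SRP72, SEC61A1 and the PDGFC fall kept their direction and call throughout. Of the genes beside SRP, 17 rose with the replicate block in place of 27, and between 18 and 23 when a library was left out.

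Same-numbered libraries did not deviate together (correlations of -0.101, -0.111 and -0.018 between the 3 pairs, across genes), no library correlated best with its own number, and the labels name no shared batch, so the numbers were not taken to pair the libraries. The sign turned for values that never passed: SRP19 (-0.005 without shNC replicate 3, and -0.011 to 0.057 over the libraries left out), FAM118B (-0.065 to 0.015), OST4 (-0.038 to 0.11) and RN7SL1 (0.0048 without shNC replicate 2, 0.093 without shNC replicate 3, and -0.15 to 0.11 over the libraries left out). The cause was not tested. The median log2 change of all genes stayed between -0.024 and -0.002. Over 66 genes (the members, PDGFC, the partners named by rule or called, RN7SL3, the tested neighbours, the tested genes overlapping a member and the 5 like profiles), 758 values kept direction and call, 79 lost a call, 6 gained one and 7 changed sign. RNU6-678P, with 12 reads, and INHCAP could not be fitted under every alternative, since some filters removed them.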

Other observations

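The gene lengths inferred from the steps of the deposited values were shorter than the union of GENCODE 29 exons for all 10 members. For SEC61B the length was 282 bases against 1190, for SRPRB 2576 against 4180 and for SRP19 2776 against 10517. Differences between groups within a gene do not depend on its length, whereas the order of levels between genes does. No source used here says which exons were counted.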
